A study of Rattus norvegicus with 30 samples.

Results

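Transcripts that were low in PC12 cells without a construct and high in all 4 huntingtin lines before induction are described here. They were chosen from the readout itself. The RNA isolations of a culture and day were averaged, and a probe was taken where each of the 4 lines exceeded PC12 by at least 1.0 on day 0, on the natural log scale of the deposited values. A difference of 1.0 is a 2.72-fold difference on that scale. The rule gave 281 of 22521 probes on the Illumina RatRef-12 array, or 1.25%. The day 0 differences between the lines and PC12 are therefore a description and were not tested.

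The cells with a construct expressed exon 1 of huntingtin fused to green fluorescent protein under a doxycycline-inducible promoter, with 74 glutamines (Q74, lines 4 and 6) or 23 glutamines (Q23, lines 1 and 5). Each of these lines was measured before induction (day 0) and on day 1 and day 5 of 1 μg/ml doxycycline. RNA was isolated 2 times at each of these points, which gave 24 arrays. The 6 arrays of PC12 cells with no construct, 2 on each of the same days, came from cells under the same culture conditions and were taken as technical repeats of 1 culture. The lines were kept in G418 and hygromycin, the drugs used to select stable transfectants, and the 2 lines of a construct were independent of each other.

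PC12 is a line from a rat phaeochromocytoma, a tumour of the chromaffin cells of the adrenal medulla, and it makes and stores catecholamines. Stably transfected lines are grown out under drug selection from few cells of the parental population, and they can differ from it in more than the inserted gene. In an inducible line the construct is meant to be silent until doxycycline is added. An expanded glutamine stretch in exon 1 of huntingtin causes Huntington's disease and makes the fragment aggregate.

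The PC12 arrays stood apart from the others over all probes. Their means were 5.51 to 5.52, against 5.57 to 5.58 on the arrays of the lines, and their 75th percentiles were 6.22 to 6.29, against 6.32 to 6.41. The day 0 profile of a line correlated with that of PC12 at r = 0.972 to 0.976 over all probes, and with that of another line at 0.992 to 0.997. The median over all probes of a line minus PC12 was only 0.02 to 0.03. Differences between the cells and differences between these sets of arrays cannot be told apart for PC12. In RNA of whole cultures, fewer cells with a transcript and less of it in each cell cannot be told apart either. Probes could not be assigned to genes, so chromaffin cell markers and gene groups were not tested, and transcripts are given by probe identifier or by rank.

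Before induction the 281 transcripts were about as high in one line as in another and clearly lower in PC12. Their median level was 7.27 in Q74 line 4, 7.31 in Q74 line 6, 7.16 in Q23 line 1 and 7.22 in Q23 line 5, against 5.60 in PC12. The median difference of a line from PC12 was between 4.22-fold, in Q74 line 4, and 4.49-fold, in Q74 line 6. The lines differed little among themselves. The range over the lines had a median of 0.33, and it was smaller than the distance from PC12 to the lowest line in 277 of the 281 transcripts. The rule holds that distance at 1.0 or more, so this count is largely built in. The range was not computed over all probes. The lowest line was Q74 line 4 in 114 of them, Q74 line 6 in 49, Q23 line 1 in 57 and Q23 line 5 in 61. Q74 line 4 was also the highest line in 76. These counts were not made over all probes, so they are not read as a trait of the 281.

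**Figure D1:**
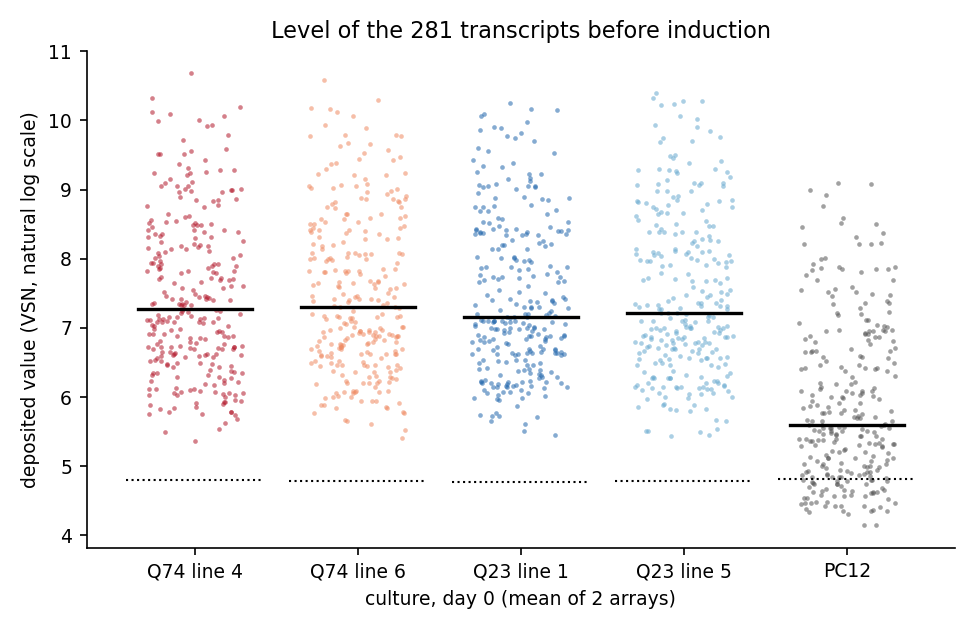
Deposited values of the 281 transcripts on day 0, on a natural log scale, in the 4 construct lines and in PC12, with 1 point per transcript as the mean of 2 arrays. The solid bar is the median of the transcripts, 7.16 to 7.31 in the lines and 5.60 in PC12, and the dotted bar is the median of all probes on those arrays.

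The same difference in the other direction was rarer. Only 45 probes were higher in PC12 than in each line by 1.0 or more. The distance from PC12 to the lowest line had a median of 1.28 in the 281 transcripts, or 3.59-fold, and 70 of them were at 1.5 or more and 20 at 2.0 or more. The values thinned out without a gap at the threshold. The last 3 transcripts inside it were at 1.0024, 1.0017 and 1.0010, and the first 3 outside were at 0.9999, 0.9980 and 0.9952.

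The transcript at the greatest distance was bright in the lines and dim in PC12. Its 2 arrays on day 0 read 9.15 and 9.69 in Q74 line 4, 9.25 and 9.18 in Q74 line 6, 8.84 and 9.33 in Q23 line 1 and 9.00 and 9.11 in Q23 line 5, against 4.66 and 4.63 in PC12. All 8 arrays of the lines were far above both PC12 arrays, and the lowest line was 82.2-fold above PC12. PC12 was below the median of all probes on its arrays here, so this fold rests on a dim value, and over that median the lowest line was 69.3-fold higher. The next transcript was at 9.52 in Q74 line 4, 9.38 in Q74 line 6, 9.34 in Q23 line 1 and 9.27 in Q23 line 5, against 5.71 in PC12. Its lowest line was 35.3-fold above PC12. After them came 3 transcripts that were 21.0-fold, 15.7-fold and 11.2-fold above PC12 in their lowest line, and the last of these was not dim in PC12, at 7.07. The first 2 of the 3 were below the PC12 median of all probes, at 4.36 and 4.15. Over that median their lowest lines were 13.2-fold and 8.0-fold higher. These transcripts were picked after their values had been seen.

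A few of the transcripts separated the lines as well. The widest range over the lines, 1.90, belonged to a transcript at 7.61 in Q74 line 4 and 7.80 in Q74 line 6, against 6.19 in Q23 line 1 and 5.90 in Q23 line 5, with PC12 at 4.49. Both Q74 lines lay above both Q23 lines on every day. Another transcript was high in 3 lines and lower in 1. It was at 6.95 in Q74 line 4, 6.80 in Q23 line 1 and 6.87 in Q23 line 5, but the 2 isolations of Q74 line 6 read 5.99 and 5.31, with PC12 at 4.57. Over all 281, both Q74 lines lay above both Q23 lines on day 0 in 59 transcripts and below both in 57. The same counts were not made over all probes, so these are not read as a trait of the 281.

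Whether the 281 transcripts were at the floor of the PC12 arrays depended on where the floor was set. The files used here hold no detection call, so a transcript was placed at the floor where the PC12 mean did not exceed the median of all probes, 4.82 on day 0. That held for 53 of the 281, or 18.9%, where 50% of all probes lie by construction. Another 133 lay between the median and the 75th percentile in PC12, and 95 lay above the 75th percentile, 6.28, so that 186 would be at the floor if it were set there. The median transcript was at percentile 67.8 of the PC12 values, and at percentile 82.9 to 84.3 in the lines. None of the 281 was at or below the median of its own arrays in any line, and between 226 and 235 were above the 75th percentile there.

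**Figure D2:**
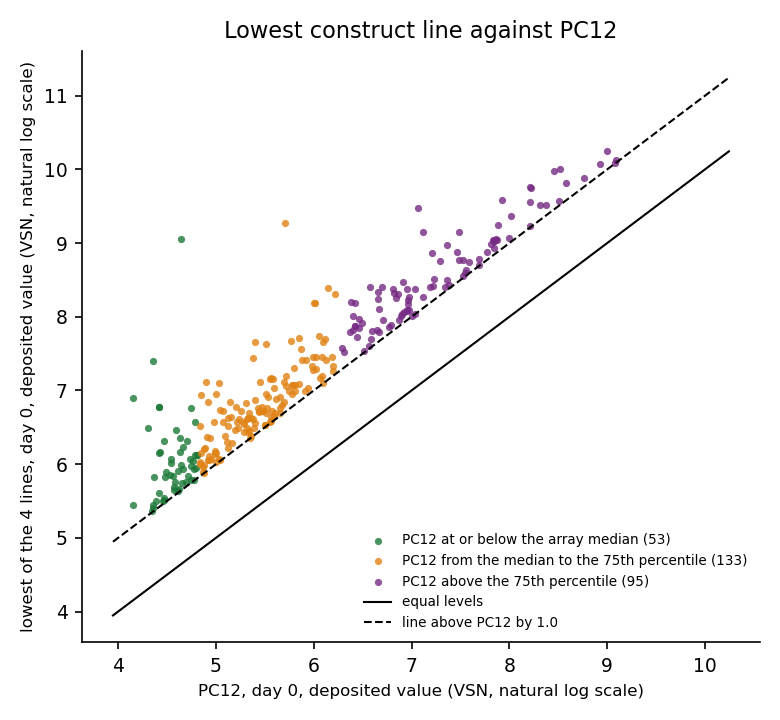
Level of each of the 281 transcripts in PC12 on day 0 (x axis) and in the lowest of the 4 lines (y axis), both on the natural log scale, coloured by where PC12 stood among all probes. Of these, 53 were at or below the median, 133 between the median and the 75th percentile and 95 above it, so points run along the whole range of PC12 levels.

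The rule set the same lower limit of 1.0 on the distance from PC12 to the lowest line in all 3 classes. The distance had a median of 1.32 where PC12 was at the floor, 1.29 where PC12 was between the median and the 75th percentile, and 1.22 where PC12 was above that. The lines' mean level had a median of 6.20, 6.96 and 8.58 in these classes, against 4.58, 5.44 and 7.12 in PC12. For the 53 transcripts at the floor, VSN values can be nearly linear in the signal, so their folds can understate the difference. This was not checked on these values. PC12 stayed at the floor on days 0, 1 and 5 in 47 of these 53, and both PC12 arrays of day 0 were at their own floor in 44.

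The difference from PC12 lasted through induction. On day 1 the lines exceeded PC12 by 1.0 or more in 259 of the 281 transcripts and on day 5 in 248, and 240 did so on all 3 days. These arrays did not enter the rule. Over all probes 1.35% passed the same difference on day 1 and 1.39% on day 5. Every array of the lines lay above both PC12 arrays of the same day in all 281 transcripts on day 1 and on day 5, which held for 19% and 19.4% of all probes. The distance to the lowest line had a median of 1.28 on day 0, 1.27 on day 1 and 1.28 on day 5. Selection on day 0 values by itself makes some transcripts near the threshold drop below it on other days.

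PC12 itself moved little under doxycycline. Its change to day 5 lay between -0.22 and 0.28 in the 281 transcripts, with a median close to 0, and its change to day 1 between -0.27 and 0.16. On day 5 the lowest line was less than 1.0 above PC12 in 33 transcripts. That line was Q74 line 4 in 13 of them, Q74 line 6 in 10, Q23 line 1 in 3 and Q23 line 5 in 7. Their distance on day 5 had a median of 0.90 and a lowest value of 0.24, against a median of 1.11 on day 0.

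**Figure D3:**
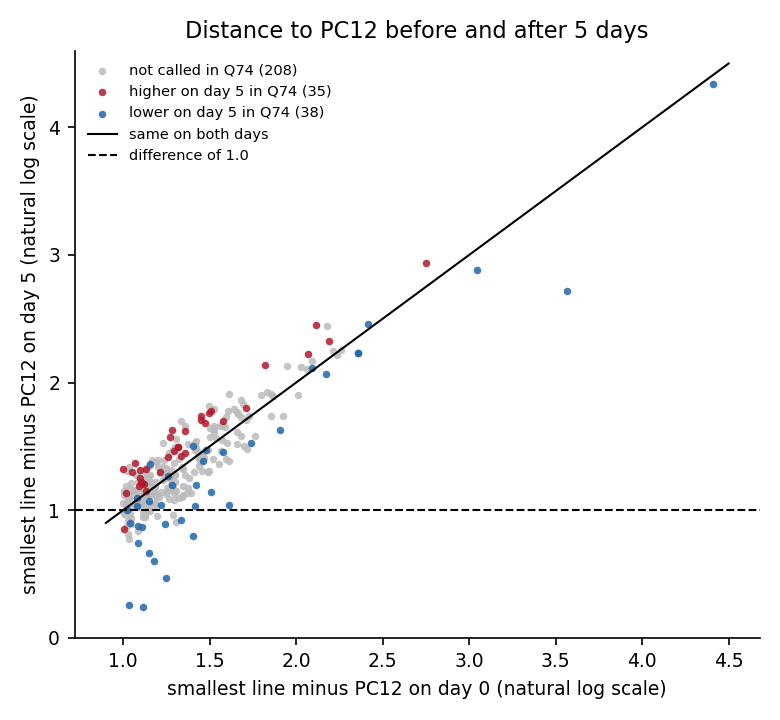
Distance from PC12 to the lowest of the 4 lines on day 0 (x axis) and day 5 (y axis) for the 281 transcripts, on the natural log scale, coloured by the limma call of day 5 against day 0 in Q74. The 33 transcripts under the dashed line at 1.0 include the 2 with the largest falls in Q74, at 0.24 and 0.26 on day 5.

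Over 5 days of Q74 induction some of the transcripts were called, in both directions, and most were not called. With the line as a block in limma, 73 of the 281 had an adjusted p below 0.05 for day 5 against day 0 in the Q74 lines, 35 of them higher and 38 lower on day 5. That is 26.0% of the transcripts, against 10.3% of all probes. By direction, 12.5% rose, against 6.13% of all probes, and 13.5% fell, against 4.21%. The shares by direction were set against all probes only, and not against probes as bright as the 281. Calls were more frequent among bright probes, and of the 10440 probes above the array median in all 4 lines on day 0, 20.5% were called. The split between directions depended on the scaling, with 29 higher and 39 lower after quantile normalization and 47 higher and 34 lower after centring on array medians. The median change of all 281 was 0.01, and that of all probes was smaller than this in size. The median change of the 281 was 0.001 when Q74 line 4 was left out and 0.03 when Q74 line 6 was. The number called depended on which line was left out, among the 281 and over all probes. Counting every isolation separately, with a random block for line, gave 28, 8 higher and 20 lower, against 1221 of all probes. Day 0 values of the same lines helped to choose the transcripts, so part of any fall from day 0 is built in.

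The rises were small and the falls reached further. The 35 that rose did so by a median of 0.26, or 1.30-fold, and 2 of them by over 0.5. The 38 that fell had a median change of -0.34, a 1.40-fold fall, and 13 fell by over 0.5. The calls rest on the mean change of the same 2 lines, so that the lines mostly share its direction by construction. It was that of the mean for all 73 in Q74 line 4 and for 72 in Q74 line 6. The change was larger in size in Q74 line 4 for 26 of the 35 rises and 28 of the 38 falls. The medians that follow are read on transcripts chosen for their change in Q74 and describe them only. In these 35 the median change was 0.34 in Q74 line 4 and 0.21 in Q74 line 6, against -0.01 in Q23 line 1, 0.01 in Q23 line 5 and -0.03 in PC12. In these 38 it was -0.43 in Q74 line 4 and -0.28 in Q74 line 6, against -0.01 in Q23 line 1, 0.00 in Q23 line 5 and -0.01 in PC12.

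**Figure D4:**
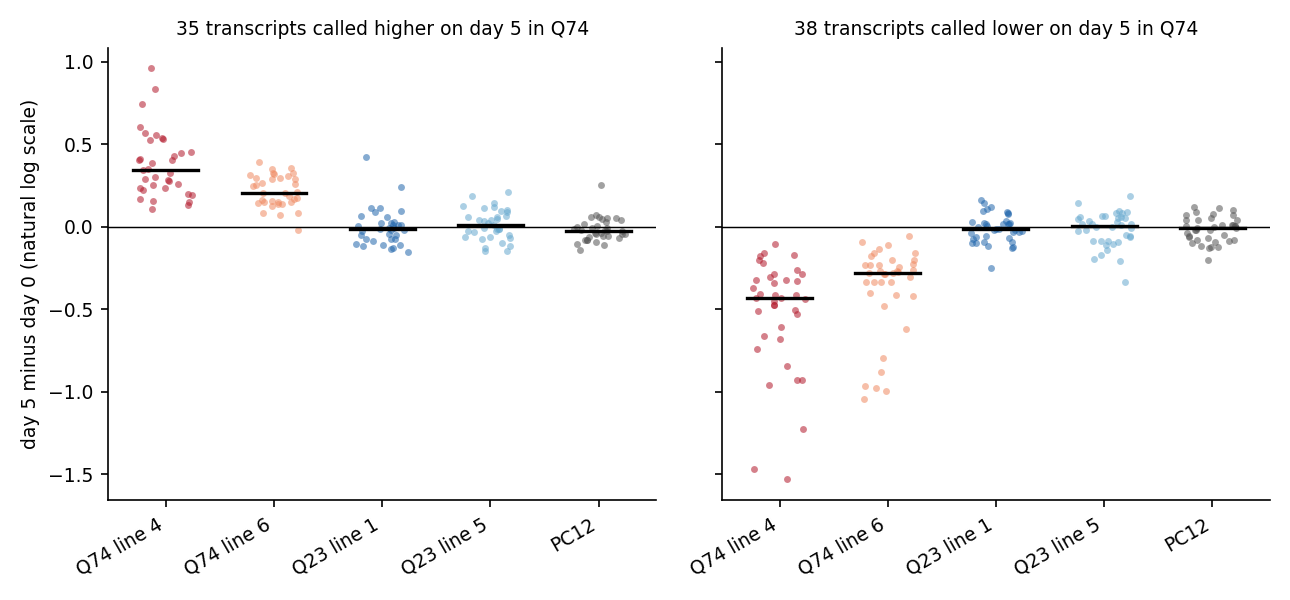
Change from day 0 to day 5 in each culture, on the natural log scale, for the 35 transcripts called higher (left) and the 38 called lower (right) on day 5 in Q74, with 1 point per transcript and a bar at the median. The medians were 0.34 and 0.21 in the Q74 lines for the rises, and -0.43 and -0.28 for the falls, and they lay between -0.03 and 0.01 in Q23 and PC12.

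The Q74 lines stayed above PC12 after the falls. Over the 38 transcripts, mean Q74 minus PC12 had a median of 1.33 on day 5, against 1.68 on day 0, and in 25 of them each line was still at least 1.0 above PC12 on day 5. Over the 35 that rose it had a median of 1.81 on day 5, against 1.45 on day 0. PC12 was at the floor in 9 of the 35 rises and 10 of the 38 falls.

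The largest fall belonged to ILMN_1366338. In Q74 line 4 its 2 isolations read 7.48 and 7.27 on day 0, 7.11 and 6.98 on day 1 and 5.87 and 5.82 on day 5. In Q74 line 6 they read 6.69 and 6.20 on day 0, 6.18 and 6.01 on day 1 and 5.47 and 5.43 on day 5. Both Q74 lines were below all of their day 0 values on day 5. In Q23 line 1 it was at 6.69 on day 0 and 6.56 on day 5, in Q23 line 5 at 6.69 and 6.71, and in PC12 at 5.34 and 5.21. The change in Q74 was -1.26 ± 0.09 (SE, limma adjusted p = 1.56e-07), a 3.54-fold fall, and the change in Q74 minus the change in Q23 was -1.21 (adjusted p = 6.10e-05). On day 5 Q74 line 6 was 0.24 above PC12, or 1.27-fold, and Q74 line 4 was 0.63 above it.

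ILMN_1360032 had almost the same course at a lower level. It read 6.83 and 6.46 on day 0, 6.58 and 6.17 on day 1 and 5.29 and 5.07 on day 5 in Q74 line 4. In Q74 line 6 it read 6.05 and 5.67 on day 0, 5.58 and 5.22 on day 1 and 4.89 and 4.87 on day 5. Every Q74 value on day 5 was below every Q74 value on day 0. It stood at 5.95 on day 0 and 5.86 on day 5 in Q23 line 1 and at 5.66 on both days in Q23 line 5, with PC12 at 4.62 on day 0 and 4.63 on day 5, at the array floor. The change in Q74 was -1.22 ± 0.10 (SE, limma adjusted p = 6.58e-07), a 3.40-fold fall, and differed from that in Q23 by -1.18 (adjusted p = 0.000176), or by -1.13 (adjusted p = 0.0626) when Q23 line 5 was left out. Q74 line 6 was 0.26 above PC12 on day 5.

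The third fall was of a bright transcript that was also bright in PC12. It stood at 10.7 on day 0, 10.5 on day 1 and 9.45 on day 5 in Q74 line 4, and at 10.6, 10.5 and 9.70 in Q74 line 6. Q23 line 1 was at 10.2 on all 3 days and Q23 line 5 at 10.3, 10.2 and 10.1, with PC12 at 9.00 on day 0. It was above both Q23 lines in both Q74 lines on day 0 and below both on day 5. Its change in Q74 was -1.06 ± 0.07 (SE, limma adjusted p = 2.28e-08). The transcript second in distance from PC12, described above, fell next furthest and was the only one of the 281 called on day 1 in Q74. It stood at 9.52 on day 0, 9.27 on day 1 and 8.59 on day 5 in Q74 line 4 and at 9.38, 9.08 and 8.33 in Q74 line 6, while the Q23 lines kept between 9.21 and 9.34. The call on day 1 (-0.27, limma adjusted p = 0.0255) was lost when any single line was left out, with adjusted p between 0.119 and 0.291. The change to day 5 in Q74 was -0.99 ± 0.05 (SE, limma adjusted p = 4.50e-09), and each line was still at least 2.72 above PC12. The transcript at the greatest distance also fell in Q74, by 0.40 (limma adjusted p = 0.000243), with 8.91 in Q74 line 4 and 8.93 in Q74 line 6 on day 5.

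The largest rise belonged to ILMN_1354407, which was near the bottom of the PC12 arrays, at percentile 14.6 on day 0. In Q74 line 4 it read 5.52 and 5.99 on day 0, 5.75 and 5.97 on day 1 and 6.57 and 6.86 on day 5. In Q74 line 6 it read 5.97 and 5.79 on day 0, 5.82 and 5.92 on day 1 and 6.20 and 6.25 on day 5. Both lines were above all their earlier values on day 5. It was at 5.75 on day 0 and 5.74 on day 5 in Q23 line 1, at 5.49 and 5.58 in Q23 line 5, and at 4.38 and 4.37 in PC12. The change in Q74 was 0.65 ± 0.09 (SE, limma adjusted p = 0.000226), or 1.92-fold, and exceeded that in Q23 by 0.61 (adjusted p = 0.0183). That excess was 0.57 when Q23 line 1 was left out, 0.66 when Q23 line 5 was and 0.31 when Q74 line 4 was, and none of these passed the test (adjusted p = 0.0976 to 0.432). Q74 line 4 was 10.4-fold above PC12 on day 5, against 3.94-fold on day 0, or 6.58-fold against 2.55-fold over the PC12 median of all probes.

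ILMN_1376434 rose in the same way at a higher level. It read 8.28 and 8.75 on day 0 and 9.20 and 9.32 on day 5 in Q74 line 4, and 8.85 and 8.78 on day 0 and 9.12 and 9.09 on day 5 in Q74 line 6. Its Q23 lines stood at 8.74 and 8.84 on day 0 and at 8.77 and 8.88 on day 5. PC12 was at 7.23 on day 0, above the 75th percentile of its arrays. The change in Q74 was 0.52 ± 0.08 (SE, limma adjusted p = 0.000238), or 1.68-fold, and exceeded that in Q23 by 0.49 (adjusted p = 0.0186). The excess was 0.48 when Q23 line 1 was left out, 0.50 when Q23 line 5 was and 0.26 when Q74 line 4 was, again with no call (adjusted p = 0.182 to 0.381).

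**Figure D5:**
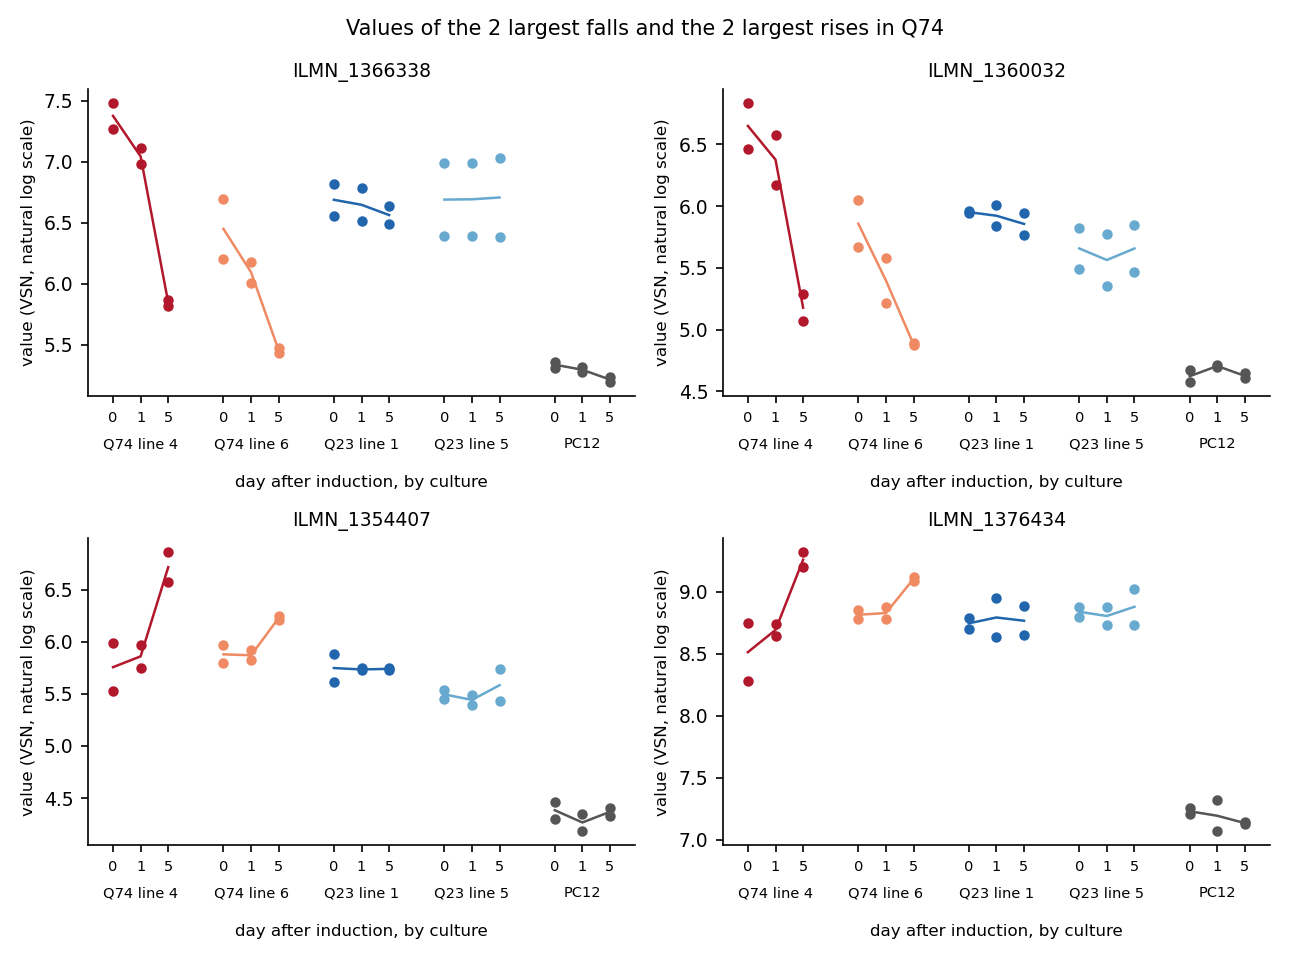
Values by array, on the natural log scale, of the 2 transcripts with the largest falls (top) and the 2 with the largest rises (bottom) in Q74, with 1 point per RNA isolation and lines through the means on days 0, 1 and 5. ILMN_1366338 reached 5.47 and 5.43 in Q74 line 6 on day 5, next to the PC12 values of 5.19 and 5.23, and the values of Q23 and PC12 stayed near those of day 0.

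Changes from day 1 to day 5 were tested as well, since their estimate uses no day 0 value. The spread in the same fit does use day 0 values, so the calls are not independent of the rule. In Q74, 63 of the 281 were called, 34 higher and 29 lower on day 5, which is 22.4%, against 9.34% of all probes and 18.8% of the probes above the array median in all lines. Higher probes made up 5.71% of all probes and lower ones 3.63%. Quantile normalization gave 22 higher and 32 lower and centring 50 higher and 23 lower. Of the 63, 56 were also called from day 0 to day 5. The count was 33 when Q74 line 4 was left out. On day 1 against day 0, 1 of the 281 was called in Q74, the fall described above, against 0.426% of all probes called and 0.0444% called lower, and 24, or 8.54%, had an unadjusted p below 0.05, against 4.81% of all probes.

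No transcript of the 281 was called in Q23 on either day, where 0% of all probes were called by limma. At an unadjusted p below 0.05 there were 29 from day 0 to day 5, which is 10.3% against 3.66% of all probes, and 11 from day 0 to day 1, which is 3.91% against 2.86%. The 29 depended on the RNA isolation. It was 93 when the first isolation of every culture was left out, which is 33.1% against 5.45% of all probes. It was 66 when the second was, which is 23.5% against 6.15%. The median change in Q23 over the 281 was -0.11 without the first isolation and 0.10 without the second. The change to day 5 differed between Q74 and Q23 in 34 transcripts, more positive in Q74 in 12 and more negative in 22. That is 12.1%, against 3.04% of all probes and 6.1% of the probes above the array median in all lines. Over all probes the change was more positive in Q74 in 1.53% and more negative in 1.51%. After quantile normalization the split was 7 and 23. With every isolation counted separately 7 were called, split 1 and 6, against 159 of all probes. The balance of directions turned with the RNA isolation, with 17 more positive and 11 more negative when the first isolation of every culture was left out, and 0 and 13 when the second was. The change to day 5 is taken from day 0 values, which helped to choose the transcripts. From day 1 to day 5, where the estimate uses no day 0 value but the spread does, the change differed in 17 of the 281. It was more positive in Q74 in 4 and more negative in 13. Of all 22521 probes 452 were called, 215 more positive and 237 more negative. Of the 34 that differed from day 0 to day 5, 33 were also called within Q74. The count was 6 when Q23 line 1 was left out and 4 when Q23 line 5 was, 16 when Q74 line 4 was left out and 76, split 40 and 36, when Q74 line 6 was.

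On day 5, 12 of the 281 differed between Q74 and Q23 lines in a fit of group means, 7 higher and 5 lower in Q74, against 1.12% of all probes and 2.13% of those above the array median in all lines. Over all probes 0.48% were higher and 0.644% lower in Q74. In 4 of the 7, Q74 was already higher on day 0 with an adjusted p below 0.05, as in 0.0932% of all probes, where 0.115% were called in either direction. The 7 were first chosen for being higher in Q74 on day 5 in the same fit. The day 0 values of the lines also helped to choose the transcripts. These shares are therefore a description and not a like comparison. The largest was the transcript with the widest range over the lines, at 7.38 in Q74 line 4 and 7.55 in Q74 line 6 on day 5, against 6.21 in Q23 line 1 and 5.96 in Q23 line 5. It was 3.99-fold higher in Q74 on day 5 (limma adjusted p = 0.00805), and its difference of 1.38 was 1.51 when Q23 line 1 was left out (adjusted p = 0.234) and 1.26 when Q23 line 5 was (adjusted p = 0.285). None of the 5 that were lower in Q74 on day 5 was called on day 0, and in 4 of them the change to day 5 also differed between the constructs. The largest of these was the transcript second in distance from PC12, 2.19-fold lower in Q74 (limma adjusted p = 0.00805), with adjusted p = 0.364 to 0.414 when either Q23 line was left out. In 1 of the 5 each line was still 1.0 or more above PC12. The fit takes the 3 days of a line as separate values. In a fit of the day 5 values alone none of the 281 was called, 67 had an unadjusted p below 0.05, against 2250 of the 22521 probes, and the largest difference in each direction had adjusted p = 0.0569 and 0.103 (limma). The count of 12 depended strongly on which line was left out, and so did the count over all probes.

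The 2 RNA isolations of a culture differed more in these transcripts than over all probes. On day 0 the median size of the difference between isolations was 0.27 in Q74 line 4, 0.09 in Q74 line 6, 0.20 in Q23 line 1 and 0.11 in Q23 line 5, against 0.10, 0.08, 0.09 and 0.08 over all probes. In Q74 line 4 the second isolation was higher by a median of 0.24 on day 0, 0.13 on day 1 and 0.25 on day 5, and in Q23 line 1 by 0.18 on day 0 but lower by 0.16 on day 1. In Q23 line 5 it was lower by 0.16 on day 5. In PC12 the difference was 0.16 on day 0, against 0.09 over all probes. These shifts are small beside the distance of the lines from PC12, but not beside the changes of the 73 called transcripts, and their part in those changes was not tested. With the first isolation of each culture alone left out, 42 of the 281 were called from day 0 to day 5 in Q74, 16 higher and 26 lower. With the second left out 39 were, 13 higher and 26 lower. Over all probes 1164 and 1146 were called in these fits.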

How the data were processed

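Per the labels and the study's methods, total RNA of rat PC12 cultures was hybridised to Illumina RatRef-12 arrays. The authors took the mean of all beads per probe from BeadStudio, left the background uncorrected and normalized with VSN in R. The deposited values were read as natural log values. The base is not stated and was inferred from their range, 3.91 to 11.1, since the natural log of the largest 16-bit signal is 11.1 and its log2 is 16.0. VSN can be close to linear for dim probes, so folds, the exponential of a difference, can understate changes there. Whether all arrays were normalized together is not stated. No depth exists for arrays, and their number limits the precision.

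RNA isolations were averaged, which gave 12 values for 4 lines on 3 days. In R 4.3.3 with limma 3.58.1 (lmFit, eBayes, two-sided, Benjamini-Hochberg over 22521 probes), changes between days were fitted with the line as a fixed block, and Q74 was compared with Q23 in a fit of 6 group means. The spread has 4 and 6 residual degrees of freedom. The same line was measured on each day, and the difference between the lines of a construct correlated between days at 0.68 to 0.84 in Q74 and 0.44 to 0.58 in Q23 over all probes, so the line is a pairing. The lines are independent, but the isolations are technical. PC12 entered no fit. The fits were tested on simulated data. Python 3.11.15 with pandas 2.3.3 and matplotlib 3.10.9 did the rest.

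The rule and the transcripts, and gene lists that could not be used, were chosen with earlier results of these data known. Named transcripts are the called ones with the 2 largest rises and the 2 largest falls in Q74. Gene lists and markers were not tested for want of a pairing of probes with genes. Chips and dates are not in the labels, and batches were not tested. Of the 281 probes, 8 formed 4 pairs with identical values on all arrays and were counted apart.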

Additional observations from a re-analysis of the deposited data

Results flagged for a closer look

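In 34 of the 281 transcripts, the Q74 lines changed from day 0 to day 5 otherwise than the Q23 lines did, by the test of that difference (limma, adjusted p below 0.05). All 4 transcripts given by identifier were among them. The change in Q74 minus the change in Q23 was -1.21 for ILMN_1366338, -1.18 for ILMN_1360032, 0.61 for ILMN_1354407 and 0.49 for ILMN_1376434. Both Q74 lines moved further than both Q23 lines in each of them. These 4 were chosen for the largest called changes in Q74, so this is largely built in.

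One set of 4 arrays held a value far from the other three. For ILMN_1354407 in Q23 on day 5, the second isolation of line 5 read 5.43, and the other arrays read 5.73, 5.74 and 5.75, so that the gap to the nearest was 0.93 of the whole range. The first isolation of the same line was among the 3 close values. Chance flags about 1 in 20 such groups, and 30 groups were looked at.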

How the results depend on the processing

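With the line left out as a block (no replicate block), 4 transcripts were called from day 0 to day 5 in Q74, 2 from day 1 to day 5, 0 from day 0 to day 1, and 0 differed in their change. Over all 22521 probes these counts were 28, 10, 4 and 0. Where every isolation counted as its own sample, with line as random block, the counts among the 281 were 28 (8 higher and 20 lower), 23, 0 and 7 (1 and 6). On day 5, 30 differed. Over all probes these 5 counts were 1221, 1007, 87, 159 and 1189. Leaving out isolation 1 of every culture gave 42, 41 and 0 for the changes in Q74. In that fit 28 differed in their change, 17 more positive in Q74 and 11 more negative. Over all probes the counts were 1164, 1141, 46 and 338. Leaving out isolation 2 gave 39, 23, 0 and 13, the 13 all more negative, against 1146, 716, 7 and 267 over all probes. A fit of the day 5 values alone gave 0. Quantile normalization gave 0 from day 0 to day 1. Over the fits without 1 line, the counts were 44 to 82 from day 0 to day 5, 33 to 70 from day 1 to day 5, 0 to 2 from day 0 to day 1, 4 to 76 for the difference of changes and 0 to 74 on day 5, where the lone line of a construct is assumed to vary like the others. All 73 calls in Q74 kept their sign in each of these fits except 1, which turned without Q74 line 4. With no replicate block, with every isolation as a sample and without either Q23 line, the estimate in Q74 is unchanged by design. The sign could not turn in those fits.

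A difference of 0.7 in the rule gave 569 transcripts and one of 1.5 gave 70, and other settings gave 235 to 327. PC12 was at or below the 25th percentile in 19 and the 75th in 186. Under the other scalings, 239 and 266 passed on day 1 and 218 and 261 on day 5, where a difference of 0.7 gave 276. Of 12 alternatives, the 4 transcripts given by identifier lost their call in Q74 only with no replicate block, where the highest limma adjusted p was 0.188. They were chosen for the largest called changes in the main fit, so this is largely built in. Several of the alternatives also leave the estimate in Q74 unchanged. The difference of changes was lost in 1 alternative for ILMN_1366338, 3 for ILMN_1360032, 7 for ILMN_1354407 and 6 for ILMN_1376434.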
